A study of Mus musculus with 8 samples.

Results

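The 8 genes described here encode the colony-stimulating factors and their receptor chains: the 3 ligands Csf1, Csf2 and Csf3 and the 5 receptor chains Csf1r, Csf2ra, Csf2rb, Csf2rb2 and Csf3r. They were chosen by gene symbol, through the mouse GENCODE name of each Ensembl identifier, from the 55359 genes in the table of normalized counts, and all 8 were present and above the limit for testing. Total RNA was sequenced from bone marrow-derived Mϕ (BMDMs) of wildtype C57BL/6 mice in 4 groups of 2 samples each. Ctrl Mϕ were naïve and unstimulated. LPS Mϕ were naïve cells given 100 ng/mL LPS together with 100 U/mL murine IFNγ for 6 h. Eff Mϕ had been co-cultured for 16 h with apoptotic NIH-3T3 caspase activatable (CA) cells, an engineered mouse fibroblast line, at 5 apoptotic cells per Mϕ with 10 nM dimerizer, the compound that triggers caspase-8 in these engineered cells. The sources used here do not say whether Ctrl and LPS Mϕ received dimerizer, so co-culture and the compound cannot be told apart. LPSEff Mϕ received the co-culture, a wash and then the same LPS/IFNγ stimulus. All 4 groups had been differentiated in 20 ng/mL M-CSF and 20 ng/mL GM-CSF, the proteins that Csf1 and Csf2 encode, so both ligands were supplied to every culture, and all cells were collected with beads against CD45. The labels do not say whether the samples of a group came from separate mice or cultures, so the p-values measure only the spread between these samples, which may be technical.

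M-CSF, the product of Csf1, keeps Mϕ alive and proliferating through Csf1r, a receptor tyrosine kinase that also binds IL-34. GM-CSF, the product of Csf2, is made by activated cells and signals through an alpha chain, Csf2ra, and a common beta chain, Csf2rb, which activate JAK2 and STAT5. The mouse has an additional beta chain, Csf2rb2, which serves the IL-3 receptor, and G-CSF, the product of Csf3, acts through Csf3r, mainly on cells of the neutrophil lineage. LPS and inflammatory cytokines are known inducers of all 3 ligands in Mϕ.

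Every ligand gene passed the test for a change under LPS/IFNγ, so the 250 bases upstream of the start sites of Csf1 and Csf2 are shown, on the strand of the gene and in the GRCm39 build (mm39, as in the files). Csf1 lies at chr3:107648364-107667806 on the minus strand, and its window at chr3:107667807-107668056. Csf2 lies at chr11:54138097-54140493 on the minus strand, 15635 bases from Il3, with its window at chr11:54140494-54140743. Csf3 lies at chr11:98592089-98594458 on the plus strand. Capitals mark a match to the common NF-κB consensus in Csf1 and the letters AGATTCC, the core of cytokine element 1 (CK-1) of haematopoietic growth factor genes, in Csf2.

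Csf1: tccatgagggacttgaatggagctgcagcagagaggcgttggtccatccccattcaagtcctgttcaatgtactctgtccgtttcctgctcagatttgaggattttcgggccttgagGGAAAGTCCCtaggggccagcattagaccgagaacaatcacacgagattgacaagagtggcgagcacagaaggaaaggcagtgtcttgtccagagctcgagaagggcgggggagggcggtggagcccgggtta

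Csf2: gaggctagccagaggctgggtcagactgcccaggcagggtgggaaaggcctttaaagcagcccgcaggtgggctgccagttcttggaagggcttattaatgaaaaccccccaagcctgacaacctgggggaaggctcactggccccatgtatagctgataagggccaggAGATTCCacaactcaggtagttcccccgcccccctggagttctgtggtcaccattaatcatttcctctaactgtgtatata

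The CK-1 core AGATTCC stood 81 to 75 bases upstream of the start of Csf2. Counting both strands, it was present in 676 of 21757 upstream windows of the same length, or 3.11%. With its neighbouring letters the Csf2 element reads GAGATTCCAC, a run present in 7 of the 21757 windows (0.0322%). The NF-κB consensus was matched once in Csf1, 133 to 124 bases upstream, and not in Csf2, and was present in 7.63% of all windows. The C/EBP form TTNNGNAA had no match in the Csf1 window and 1 in that of Csf2, which shared 4 letters with the CK-1 core, and was present in 36.9% of all windows. Only full matches were counted, so a site that departs from these forms is not listed. A match is a description of the letters and was not tested for binding.

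LPS/IFNγ raised the transcripts of the ligands, whether or not the Mϕ had taken up apoptotic cells. Csf3, at 2 to 9 reads per unstimulated sample, rose 499-fold in naïve and 647-fold in efferocytic Mϕ in the limma fit and 1096-fold and 830-fold in pooled reads, so that the order of the states depended on the scale. Csf1 rose 3.02-fold and 2.51-fold, and Csf2 rose from the limit of detection. Of the receptor chains, Csf2ra rose in naïve and Csf3r in efferocytic Mϕ, and no receptor chain passed as lower. With limma on log2(normalized count + 1), 4 of the 8 genes passed an adjusted p of 0.05 in LPS against Ctrl, where 24.0% of the 16309 tested genes passed. In LPSEff against Eff 4 of 8 passed, against 19.7% of all tested genes. No member passed in Eff against Ctrl or in LPSEff against LPS, where 0.251% and 0.773% of all tested genes passed. Csf2 and Csf3 reached the limit of a mean of 10 normalized counts only through their stimulated samples, so that these counts describe the genes and are not a measure of how unusual they are. In bulk samples, fewer cells that transcribe a gene and less RNA per cell cannot be told apart.

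**Figure D1:**
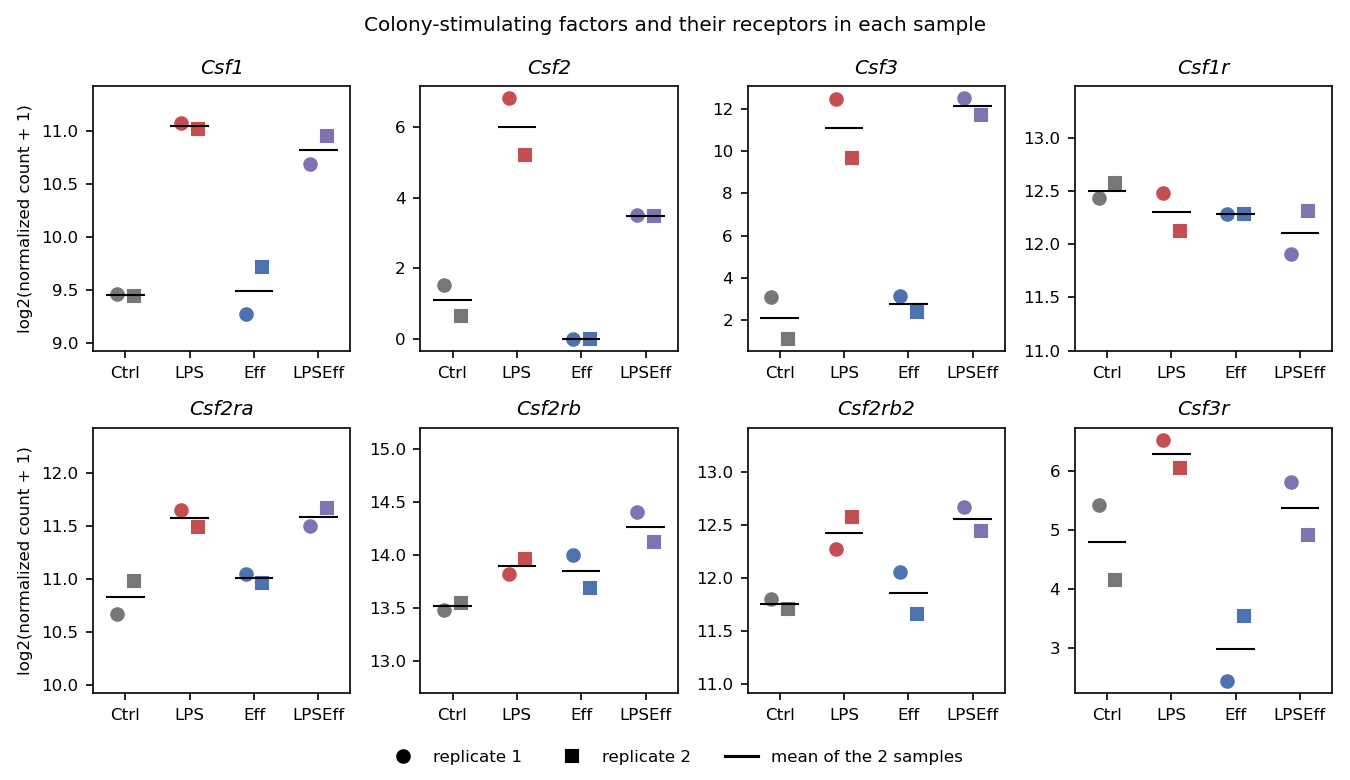
Each panel plots log2(normalized count + 1) of 1 gene in the 8 samples, with circles for replicate 1, squares for replicate 2 and a line at the mean of the 2 samples of a group. Each panel has its own axis range. The stimulated samples of Csf1, Csf2 and Csf3 lie above all unstimulated ones, while those of Csf1r overlap with them.

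Csf1 had 703 and 695 normalized counts in the Ctrl samples and 2147 and 2074 in the LPS samples. Its counts were 617 and 840 after co-culture alone (Eff) and 1644 and 1982 when LPS/IFNγ followed (LPSEff). The stimulated samples were all higher than the unstimulated ones. The rise was 3.02-fold in naïve Mϕ (log2 1.59, SE 0.20, limma adjusted p = 0.00113) and 2.51-fold in efferocytic Mϕ (log2 1.33, SE 0.20, limma adjusted p = 0.00308). Its size depended on the scaling between libraries, with log2 1.19 under equal totals and 1.24 under quantile normalization in naïve Mϕ. Over all alternatives it ranged from 1.19 to 1.64 in naïve and from 0.88 to 1.55 in efferocytic Mϕ. Co-culture moved Csf1 by log2 0.04 without stimulation and by -0.23 under LPS/IFNγ, with 95% intervals of -0.42 to 0.51 and -0.69 to 0.24. Fibroblasts are a known source of M-CSF, and the summed level of 18 fibroblast markers was 198 to 408 normalized counts in Ctrl, 977 to 1030 in LPS, 2327 to 4552 in Eff and 6005 to 6752 in LPSEff, with Col1a2 and Col6a3 the highest in Eff and LPSEff and Efemp1 at 0 in Ctrl. Of 15 tested markers, 8 passed as higher and 0 as lower in limma in Eff against Ctrl, and likewise in LPSEff against LPS. Thy1 was lower after co-culture, with means of 31.5 in Ctrl and 25.8 in Eff, and 63.6 in LPS and 43.1 in LPSEff. Pdgfrb was lower only under LPS/IFNγ, with means of 245 in LPS and 120 in LPSEff. Where no fibroblasts were added, 3 passed as higher in LPS against Ctrl, so the sum is not specific to co-culture. NIH-3T3 CA cells are of mouse origin, so their reads cannot be told apart from those of Mϕ, and the part of fibroblast RNA in the Csf1 level was not tested.

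Csf2 was at the limit of detection without stimulation. Its normalized counts were 1.90 and 0.58 in Ctrl, which is 1 read in each sample, and it was listed at 0 in both Eff samples. They rose to 111 and 35.5 in LPS, from 86 and 35 reads, and stood at 10.3 and 10.2 in LPSEff, from 13 and 8 reads. The groups did not overlap, and the LPS samples differed from each other more than the LPSEff samples did.

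Pooled over both samples, the reads give a 77.6-fold higher level in LPS than in Ctrl, with a 95% interval of 21.0 to 648 that covers counting error only. With 1 sample left out the fitted naïve change ranged from 4.09 without replicate 1 of LPS to 5.71 without replicate 2. The pooled level in LPSEff was 8.73 times a floor of 3 reads over the Eff group. The 95% counting interval of the ratio to Eff itself began at 6.49-fold. The fitted changes of 4.90 in naïve (SE 0.76, limma adjusted p = 0.0029) and 3.49 in efferocytic Mϕ (SE 0.76, limma adjusted p = 0.0146) on the log2(normalized count + 1) scale understate a gene this low. The call in efferocytic Mϕ was lost when any 1 of its 4 samples was left out (limma adjusted p 0.0571 to 0.0916) and with a pseudocount of 5 (adjusted p = 0.0619).

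Within the stimulated Mϕ, Csf2 was lower after efferocytosis in both samples. The pooled level in LPS was 6.72 times that in LPSEff, with a counting interval of 4.21 to 11.3, on 121 and 21 reads. On the limma scale the difference was -2.51 (SE 0.76, 95% interval -4.26 to -0.76) and did not pass over all genes (limma adjusted p = 0.257). It did pass in DESeq2 on the recovered reads (adjusted p = 0.0352), where 2.40% of all tested genes passed. With the replicate number as a block it passed in edgeR (adjusted p = 0.0099) and DESeq2 (adjusted p = 0.00263), where 7.56% and 7.51% of tested genes did, but not in limma (adjusted p = 0.0523). Over all alternatives the difference ranged from -3.32 to -1.70 on the log2 scale, and the adjusted p from 0.00263 to 0.714. The larger LPS value came from replicate 1, and without it the difference was -1.70. The summed level of 8 dendritic cell markers was 8516 to 17215 normalized counts in LPS and 6889 to 6909 in LPSEff, lower in the same direction as Csf2. Most of this sum came from Ccr7, with means of 11029 in LPS and 5981 in LPSEff, against 1984 in Ctrl and 1223 in Eff. Cd209a, at 0 in LPSEff, had at most 1 read per LPS sample. Siglech went the other way, with means of 2.31 in LPS and 3.49 in LPSEff. The part of dendritic cells in the Csf2 difference was not tested.

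Csf3 showed the largest range of the 8 genes. It had 7.62 and 1.16 normalized counts in Ctrl and 7.89 and 4.23 in Eff, from 2 to 9 reads per sample. After stimulation it had 5580 and 828 in LPS and 5811 and 3350 in LPSEff. All stimulated samples lay far above the unstimulated ones, and the lower LPS sample stood apart from the other stimulated samples.

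The fitted change of Csf3 was 8.96 on the log2 scale in naïve Mϕ (SE 0.90, limma adjusted p = 0.000394) and 9.34 in efferocytic Mϕ (SE 0.90, limma adjusted p = 0.000321), or 499-fold and 647-fold on this scale. Pooled over both samples, the reads give 1096-fold in naïve (95% interval 503 to 2989) and 830-fold in efferocytic Mϕ (503 to 1483), with intervals that cover counting error only. With 1 sample left out the fitted change ranged from 7.59 without replicate 1 of LPS to 10.34 without replicate 2 of LPS in naïve Mϕ (7.96 and 9.96 without replicate 2 and 1 of Ctrl) and from 8.94 to 9.74 in efferocytic Mϕ. Co-culture changed it by 0.66 without stimulation (95% interval -1.42 to 2.74) and by 1.04 under LPS/IFNγ (95% interval -1.04 to 3.11), so these samples set wide bounds on any effect of efferocytosis. The spread between both LPS samples was larger than the difference between the LPS and LPSEff means.

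**Figure D2:**
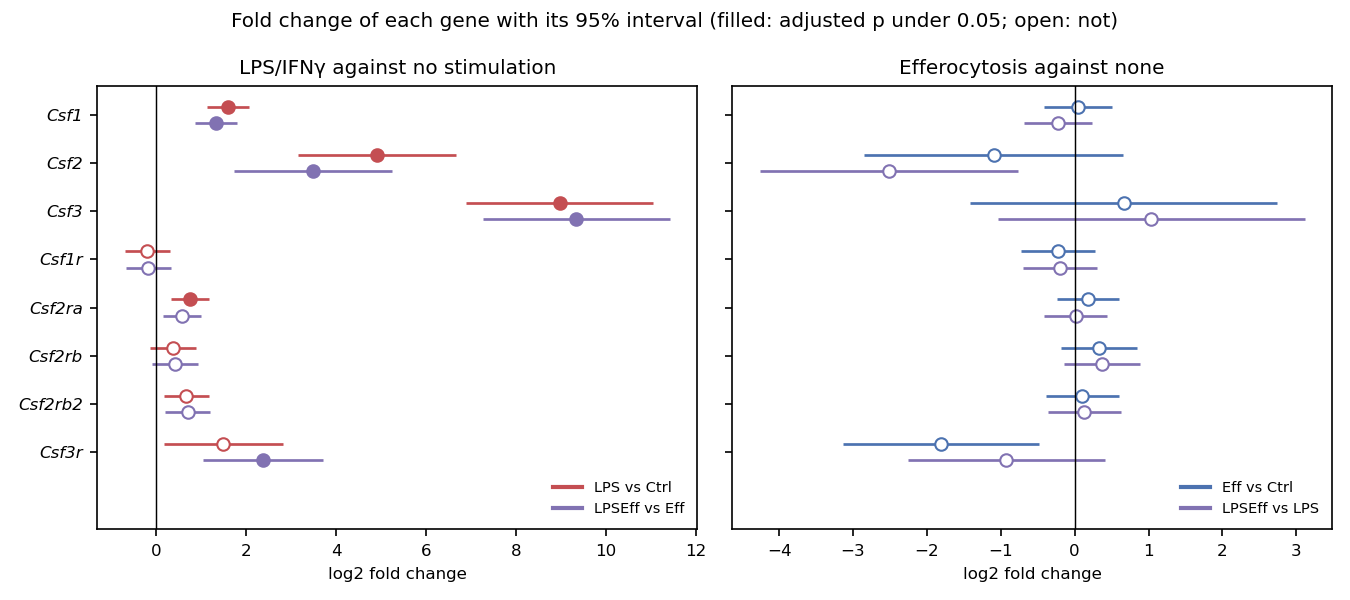
The left panel plots the log2 fold change of each gene under LPS/IFNγ in naïve and efferocytic Mϕ, and the right panel the change with efferocytosis in unstimulated and stimulated Mϕ, with 95% intervals from the limma fit. Filled points passed an adjusted p of 0.05 and open points did not. Csf3 lies near 9 in both stimulated contrasts, and every point in the right panel is open.

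Csf1r, the receptor of M-CSF and IL-34, was abundant in every sample and did not pass in any contrast. Its normalized counts were 5539 and 6113 in the Ctrl and 5722 and 4464 in the LPS samples, and 4981 and 4980 in the Eff and 3835 and 5079 in the LPSEff samples. Stimulated and unstimulated samples overlapped. The change with LPS/IFNγ was -0.20 in naïve (SE 0.22, 95% interval -0.70 to 0.30) and -0.17 in efferocytic Mϕ (SE 0.22, 95% interval -0.67 to 0.32).

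The value of Csf1r depended on the scaling between libraries. The deposited normalized counts summed to 6587737 to 6951788 in unstimulated and 8470249 to 9489294 in stimulated samples, and scaling all libraries to equal totals moved the median log2 fold change of all tested genes from -0.01 to -0.40 in LPS against Ctrl and from 0.01 to -0.44 in LPSEff against Eff. The share of called genes that were higher moved from 51.5% to 24.8% and from 54.6% to 21.8%. With quantile normalization Csf1r passed as lower, at -1.01 (limma adjusted p = 0.011) in naïve and -0.95 (limma adjusted p = 0.0155) in efferocytic Mϕ, where 25.4% and 22.9% of all tested genes passed.

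Csf2ra, the ligand-specific chain of the GM-CSF receptor, had 1634 and 2017 normalized counts in Ctrl and 3215 and 2886 in LPS. It had 2117 and 2001 in Eff and 2903 and 3262 in LPSEff. All stimulated samples were above all unstimulated ones. The rise of log2 0.75 in naïve Mϕ (SE 0.18, limma adjusted p = 0.0216), or 1.68-fold, passed, while the value of 0.58 in efferocytic Mϕ (SE 0.18, limma adjusted p = 0.0623) did not. It passed in efferocytic Mϕ with the replicate block (limma adjusted p = 0.0108), where 37.0% of all tested genes passed, among genes with a mean of at least 50 (limma adjusted p = 0.0479), and in each edgeR and DESeq2 fit (adjusted p 0.0029 to 0.0491). The naïve call was lost without replicate 1 of Ctrl (limma adjusted p = 0.138) or of LPS (limma adjusted p = 0.0895), with only the Ctrl and LPS samples in the fit (limma adjusted p = 0.0731), under quantile normalization (log2 0.16) and under equal totals (log2 0.35, limma adjusted p = 0.172), and the efferocytic value turned to -0.06 under quantile normalization.

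Csf2rb, the beta chain shared by the receptors of GM-CSF, IL-3 and IL-5, had the highest level per kb of main transcript in the mean of every group. The Ctrl samples had 11450 and 11967 normalized counts and the LPS samples 14437 and 15957. The Eff samples had 16364 and 13221 and the LPSEff samples 21671 and 17751. Both LPSEff samples were the highest and both Ctrl samples the lowest, and LPS and Eff overlapped. Under LPS/IFNγ the values were 0.37 in naïve (SE 0.22, limma adjusted p = 0.276) and 0.42 in efferocytic Mϕ (SE 0.22, limma adjusted p = 0.246), and both turned slightly negative under equal totals (-0.03 and -0.04) and more so under quantile normalization (-0.45 and -0.68). Both passed as higher in DESeq2 with the replicate block (adjusted p = 0.0478 and 0.0346). After co-culture they were 0.33 without and 0.37 with stimulation, with 95% intervals of -0.18 to 0.84 and -0.14 to 0.88.

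Csf2rb2, the beta chain of the IL-3 receptor in mice, had 3566.5 and 3341.5 normalized counts in Ctrl and 4951 and 6093 in LPS. Efferocytic samples had 4267 and 3222 without LPS/IFNγ and 6505 and 5550 with it. Every stimulated sample was above every unstimulated one. The values of 0.67 in naïve and 0.70 in efferocytic Mϕ (SE 0.22 each, limma adjusted p = 0.0569 in both) lay just outside the threshold. With the replicate block they passed (limma adjusted p = 0.00997 and 0.00906, where 41.2% and 37.0% of all tested genes passed), and under quantile normalization both turned to -0.10.

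Csf2rb and Csf2rb2 are neighbours on chromosome 15, 20030 bases apart, at chr15:78209952-78238047 on the plus strand and chr15:78166707-78189921 on the minus strand. Their coding sequences are 95.2% identical over 2628 aligned bases, and 18.9% of the 50-base windows of the Csf2rb transcript occur in the same form in Csf2rb2. The longest shared coding run has 242 bases and lies in exon 14 of each gene, at chr15:78232777-78233018 in Csf2rb and chr15:78168830-78169071 in Csf2rb2. It is shown because reads from within it belong equally to both genes, and counters at their default settings leave out reads with more than 1 location. No letter is capitalised, since the whole run is shared.

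Csf2rb and Csf2rb2, exon 14: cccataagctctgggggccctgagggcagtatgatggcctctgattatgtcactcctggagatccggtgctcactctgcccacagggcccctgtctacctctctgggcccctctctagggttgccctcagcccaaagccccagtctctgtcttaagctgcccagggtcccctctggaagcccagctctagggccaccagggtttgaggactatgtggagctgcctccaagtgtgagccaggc

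The level of each beta chain is therefore uncertain by the share of such reads. Per kb of transcript, Csf2rb exceeded Csf2rb2 in all 8 samples, 3.19-fold and 3.56-fold in Ctrl and 2.90-fold and 2.61-fold in LPS. After co-culture it did so 3.82-fold and 4.08-fold (Eff) and 3.31-fold and 3.18-fold (LPSEff). Divided by the length of all annotated exons instead, the excess was 1.71-fold to 2.67-fold over the 8 samples, so its size depends on the length used. Its change between groups does not, and the ratio is also free of the scaling between libraries. It was lower after LPS/IFNγ by log2 0.30 in naïve and 0.28 in efferocytic Mϕ, and higher after co-culture by 0.23 without and 0.24 with stimulation. Both shifts gave p = 0.0556 in a two-sided exact permutation test within strata, the smallest value this design of 8 samples allows. Adjusted over the 4 such tests made, which included the ratio of Csf2rb to Csf2ra, it was 0.111 for both. The ratio of Csf2rb to Csf2ra per kb was 2.20 to 3.78 over all samples, and neither factor reached the smallest value (exact permutation p = 0.167 for LPS/IFNγ and 0.222 for co-culture).

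Csf3r, the receptor of G-CSF, was the only receptor chain at a low level. Naïve samples had 41.9 and 16.8 normalized counts as Ctrl and 90.5 and 65.0 as LPS. Efferocytic samples had 4.38 and 10.6 as Eff and 54.6 and 29.2 as LPSEff. These values came from 5 to 70 reads per sample. Both Eff samples were the lowest and both LPS samples the highest, while Ctrl and LPSEff overlapped.

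The rise of Csf3r with LPS/IFNγ passed in efferocytic Mϕ at 2.38 (SE 0.58, limma adjusted p = 0.0229), or 5.19-fold, and was 1.49 in naïve Mϕ (SE 0.58, limma adjusted p = 0.102), where it passed with the replicate block (limma adjusted p = 0.0344). The call was lost without replicate 1 of Eff (limma adjusted p = 0.128) or of LPSEff (limma adjusted p = 0.144). After co-culture the values were -1.81 without stimulation (95% interval -3.13 to -0.48, limma adjusted p = 0.509, and 0.0978 with the replicate block) and -0.92 with it (95% interval -2.25 to 0.41). Csf3r marks neutrophils, and the 10 neutrophil markers summed to 6377 to 7895 normalized counts in Ctrl, 5245 to 6218 in LPS, 10493 to 12681 in Eff and 8384 to 10239 in LPSEff, which is higher in Eff, where Csf3r was lowest. Most of this sum came from Mmp8, with means of 6216 in Ctrl, 3692 in LPS, 10206 in Eff and 7053 in LPSEff. Unlike the sum, 3 of the 7 tested markers passed as higher in LPS against Ctrl and 0 as lower, where 12.4% of all tested genes were higher. In LPSEff against Eff 1 passed as higher and 0 as lower, where 10.7% were higher. The median log2 fold changes were 1.18 and 0.59. Retnlg was at 0 in Ctrl and LPS, and the part of neutrophils in the Csf3r level was not tested.

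The difference between the LPS/IFNγ response of efferocytic and naïve Mϕ was tested as an interaction. No member passed it in any fit. Over all 16309 genes 0% passed in limma, with 311 at an unadjusted p under 0.05, and 29 genes passed in DESeq2 with the replicate block. For Csf2 the interaction was -1.41 (95% interval -3.89 to 1.06), for Csf3 0.38 (-2.56 to 3.31) and for Csf3r 0.88 (-0.997 to 2.76). The sign for Csf2 and Csf3 differed between tools. The passing of Csf2ra in naïve and of Csf3r in efferocytic Mϕ therefore does not show that the chains responded differently.

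Per kb of the main transcript of each gene, the order of the levels changed with stimulation. In Ctrl Csf2rb was the highest at 2458 normalized counts per kb, followed by Csf1r at 963, Csf2ra at 783, Csf2rb2 at 729 and Csf1 at 167. The samples of Csf2ra and Csf2rb2 overlapped. Csf3 at 3.10 overlapped with both Csf3r at 8.36 and Csf2 at 1.55. In Eff Csf2rb was at 3105, followed by Csf2ra at 884, Csf1r at 823 and Csf2rb2 at 790, whose samples of 680 and 900 spanned the Csf1r level and overlapped with Csf2ra. Csf1 was at 174 and Csf2 at 0, and Csf3 at 4.28 overlapped with Csf3r at 2.13.

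In LPS Csf3 moved up to 2262 normalized counts per kb, between Csf2rb at 3190 and Csf2ra at 1309, but its 2 samples ranged from 584 to 3940 and overlapped with all receptor chains except Csf3r. Csf2rb2 at 1165 overlapped with Csf2ra, Csf1r was at 842, Csf1 at 503, Csf2 at 91.7 and Csf3r at 22.2. In LPSEff Csf2rb at 4137 and Csf3 at 3235 overlapped, followed by Csf2ra at 1323 and Csf2rb2 at 1272, which overlapped too, Csf1r at 737, Csf1 at 432, and Csf2 at 12.8 and Csf3r at 11.9, which overlapped as well. Csf2rb was above 98.9% of all named tested genes in LPS and above 99.4% in Eff. Divided by the length of all annotated exons instead, Csf2rb2 ranked above Csf2ra in every group, and Csf3 ranked above Csf2rb in LPS and LPSEff.

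The balance of Csf1r to its ligand transcript followed Csf1. Per kb, Csf1r exceeded Csf1 5.47-fold to 6.10-fold in Ctrl and 4.11-fold to 5.60-fold in Eff, against 1.49-fold to 1.85-fold in LPS and 1.62-fold to 1.78-fold in LPSEff.

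**Figure D3:**
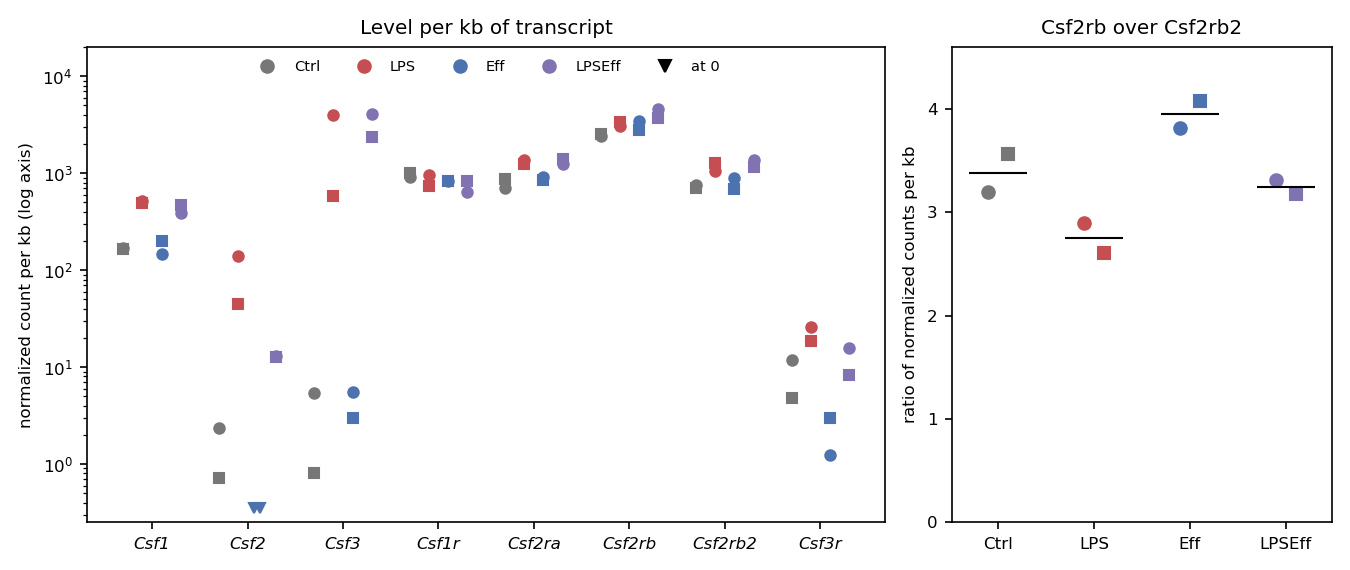
The left panel plots the normalized count per kb of transcript of each gene in each sample on a log axis, coloured by group, with circles for replicate 1, squares for replicate 2 and triangles at the base for the 2 Eff samples with Csf2 at 0. The right panel plots the ratio of Csf2rb to Csf2rb2 per kb, with a line at the mean of each group, from 2.75 in LPS to 3.95 in Eff.

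Ligands and receptors related to this family were followed as well. Kit, the receptor of stem cell factor and a relative of Csf1r, fell in both states: it had 983 and 863 normalized counts in Ctrl against 237 and 269 in LPS, and 677 and 771 in Eff against 145 and 247 in LPSEff. The change was -1.86 in naïve and -1.93 in efferocytic Mϕ (limma adjusted p = 0.00179 in both). Its ligand Kitl ranged from 37.6 to 171 normalized counts over all samples and did not pass in any contrast.

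Il34, which encodes the other ligand of Csf1r, had a mean below the limit for testing. It had 1.90 and 0 normalized counts in Ctrl, 0 in both LPS samples, 7.89 and 15.5 in Eff, and 18.2 and 14.0 in LPSEff. All samples with co-culture were above all samples without it, as were the fibroblast marker sums given above, and the source of these reads was not tested.

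Il3 and Il5, which share the beta chain with GM-CSF, reached at most 1.29 and 3.88 normalized counts, and Il5ra at most 5.08. Il3ra, the alpha chain of the IL-3 receptor, ranged from 74.8 to 169 normalized counts, with 0.69 and 0.64 on the log2 scale under LPS/IFNγ (limma adjusted p = 0.125 and 0.163). Flt3, the receptor of the dendritic cell growth factor Flt3l, had 40.0 and 62.5 in Ctrl against 82.8 and 220 in LPS, and 17.5 and 50.8 in Eff against 31.7 and 59.6 in LPSEff. Its change was 1.42 in naïve Mϕ (limma adjusted p = 0.145, and 0.0023 with the replicate block). Of the 9 related genes, 5 were tested and 1, Kit, passed in each LPS/IFNγ contrast, where 24.0% and 19.7% of all tested genes passed. With the replicate block 2 passed as higher and 1 as lower in naïve Mϕ, and 1 as higher and 1 as lower in efferocytic Mϕ. In that fit 41.2% and 37.0% of all tested genes passed.

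Downstream of the receptors, 16 of 29 receptor-proximal signalling genes passed in LPS against Ctrl, 14 higher and 2 lower, where 12.4% of all tested genes were higher and 11.6% lower. In LPSEff against Eff 11 were higher and 3 lower, where 10.7% and 8.95% of all tested genes were. At the deposited scaling and without the replicate block, these shares are the background of the lists that follow too. Of 16241 named tested genes, 1411 were higher and 4300 lower under equal totals in naïve Mϕ, and 1210 and 4351 in efferocytic Mϕ. With the replicate block 3324 were higher and 3370 lower in naïve Mϕ, and 3088 and 2926 in efferocytic Mϕ. Of the 29 signalling genes, 8 were higher and 4 lower in naïve and 8 higher and 6 lower in efferocytic Mϕ under equal totals. Their median log2 fold change was 0.59 and 0.40, against -0.01 and 0.01 over all tested genes. Under equal totals it was 0.19 and -0.05, against -0.40 and -0.44 over all tested genes. Gab3, an adaptor used by Csf1r, fell most at -1.76 and -3.26 (limma adjusted p = 0.0412 and 0.00379). It had at most 6 reads per LPS sample and at most 2 per LPSEff sample, so the size of its fall is uncertain.

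Among 16 STAT5 targets and feedback genes, 9 rose and 3 fell in naïve and 6 rose and 3 fell in efferocytic Mϕ, with medians of 1.20 and 0.95. Under equal totals 6 rose and 3 fell in naïve and 3 rose and 3 fell in efferocytic Mϕ. Socs1, an inhibitor of JAK kinases, rose by log2 2.93 in naïve Mϕ (limma adjusted p = 0.000421) and Ccnd2, a cyclin of the G1 phase, by 2.61 in efferocytic Mϕ (limma adjusted p = 0.00621). The growth gene Myc was at -2.38 in naïve (limma adjusted p = 0.00221) and the M-CSF responsive cyclin Ccnd1 at -2.28 in efferocytic Mϕ (limma adjusted p = 0.00359). Several of these genes are also known to respond to interferon or to LPS.

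Of 17 transcription factors of myeloid receptor genes, 4 rose and 4 fell in naïve and 1 rose and 5 fell in efferocytic Mϕ. The medians were 0.16 and -0.07. Under equal totals they were -0.24 and -0.47, against -0.40 and -0.44 over all tested genes. With the replicate block 8 rose and 5 fell in naïve and 6 rose and 5 fell in efferocytic Mϕ, so the balance of directions depended on the fit. Cebpa, a factor of the Csf3r and Csf2ra promoters, was lower by 2 or more on the log2 scale in both (-2.17 and -2.37, limma adjusted p = 0.00898 and 0.00709). Irf8, a factor of Mϕ fate, rose by 1.74 in efferocytic Mϕ (limma adjusted p = 0.0056). Gfi1, a transcriptional repressor, rose by 2.81 in naïve Mϕ (limma adjusted p = 0.0224) and stood at -0.07 in efferocytic Mϕ (limma adjusted p = 0.962). No gene passed the interaction in limma, so these values do not show that the states responded differently.

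Genes linked to GM-CSF in cultured Mϕ did not move one way, with 4 higher and 2 lower of 12 tested in both states and medians of 0.44 and 0.55. Pparg, the lipid-sensing receptor that GM-CSF induces in alveolar Mϕ, fell by 2.86 and 2.91 on the log2 scale (limma adjusted p = 0.00337 and 0.0036), and Marco, a scavenger receptor, rose by 6.87 and 5.69 (limma adjusted p = 9.5e-06 and 1.54e-05). Of 10 tested genes linked to M-CSF, 2 rose in naïve and 1 in efferocytic Mϕ and none passed as lower. The medians were -0.26 and 0.09. Under equal totals they were -0.66 and -0.36, against -0.40 and -0.44 over all tested genes. In that fit 0 rose and 4 and 3 fell, where 4300 and 4351 of all 16241 named tested genes fell. With the replicate block 3 rose and 4 fell in naïve and 3 rose and 3 fell in efferocytic Mϕ. The 20% and 10% that rose without the block compare with 12.4% and 10.7% of all tested genes. The chemokines Ccl7 (1.40, limma adjusted p = 0.034) in naïve and Ccl2 (1.33, limma adjusted p = 0.0209) in efferocytic Mϕ had the largest rise.

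**Figure D4:**
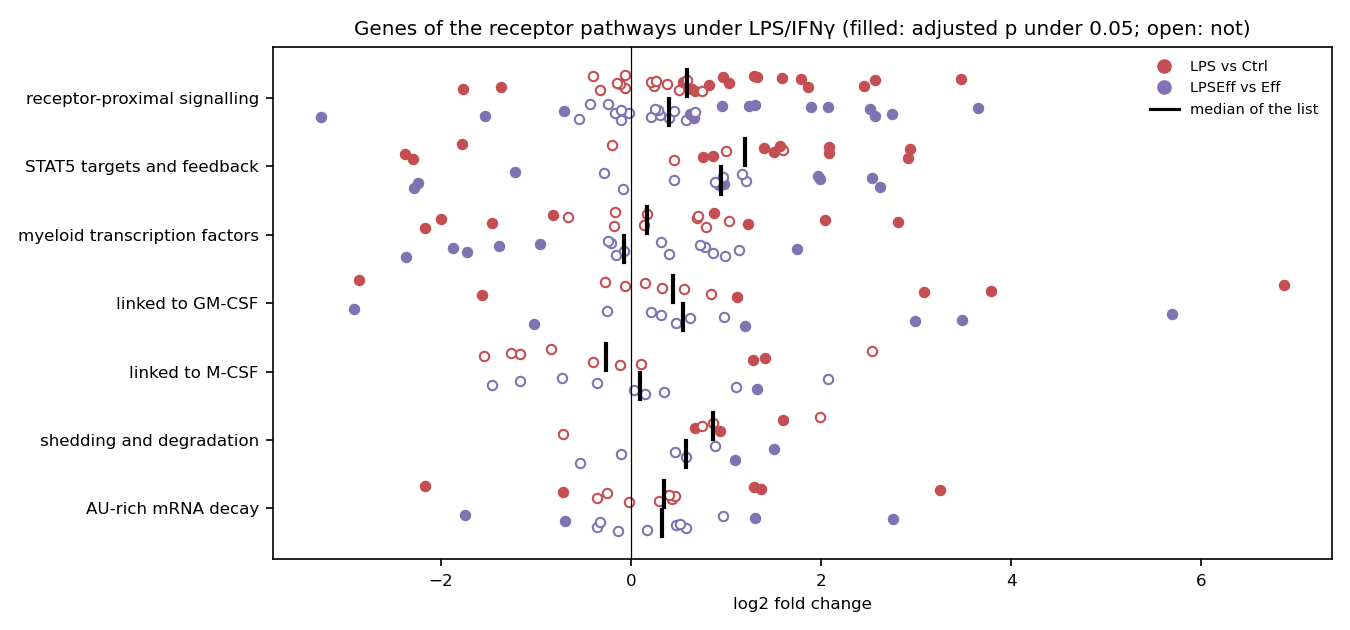
Each point is the log2 fold change of 1 tested gene under LPS/IFNγ in naïve (LPS vs Ctrl) or efferocytic Mϕ (LPSEff vs Eff), grouped by list, with filled points for an adjusted p under 0.05 and a black line at the median of the list. The list medians lie between -0.26 and 1.20 in naïve and between -0.07 and 0.95 in efferocytic Mϕ, with genes on both sides of 0 in every list.

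Genes that act on the CSF proteins and transcripts after transcription were also counted. Of 7 tested genes of shedding and degradation, 3 rose in naïve and 2 in efferocytic Mϕ and none passed as lower, with medians of 0.86 and 0.58. With the replicate block 5 rose and 1 fell in naïve and 4 rose and 1 fell in efferocytic Mϕ, and under equal totals 1 rose and 1 fell and 2 rose and 1 fell. Rhbdf2, a partner of the sheddase ADAM17 that releases Csf1r and M-CSF from the cell surface, rose most at 1.60 and 1.50 (limma adjusted p = 0.00299 and 0.00478).

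Of 12 decay and stability factors of AU-rich transcripts, a class that includes the ligand mRNAs, 3 rose and 2 fell in naïve Mϕ. In efferocytic Mϕ 2 rose and 2 fell, and the medians were 0.35 in naïve and 0.32 in efferocytic Mϕ. Under equal totals they were -0.05 and -0.13, against -0.40 and -0.44 over all tested genes. Zc3h12a, an RNase of inflammatory transcripts, rose by 3.24 and 2.76 (limma adjusted p = 0.00043 and 0.00102) and Zfp36l2, a decay factor, fell by 2.16 and 1.75 (limma adjusted p = 0.0032 and 0.00949). No gene of any of these lists passed in Eff against Ctrl or LPSEff against LPS, except that with the replicate block 8 and 11 of the 108 tested list entries did, where 2.67% and 6.97% of all tested genes passed. Among them was Ccl22, a GM-CSF linked chemokine chosen here after its values were seen, which was lower in both contrasts (-1.11 and -1.42, limma adjusted p = 0.0102 and 0.0016).

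The genes whose pattern over the 8 samples was most like that of a member were found by the root mean square difference of centred log2 values, with no test. For Csf1 these were Crim1, Mitd1 and Fah (0.12 to 0.14), for Csf2 Mir155hg, Phf11a and Heatr9 (0.79 to 0.83), and for Csf3 U90926, Il1b and Rsad2 (0.76 to 0.93). For Csf1r they were Letmd1, Nr2c1 and Emilin1 (0.07 to 0.10), for Csf2ra Tmem63b, Hbs1l and 5031425E22Rik (0.07 to 0.08), for Csf2rb Ywhag, Wdsub1 and Mocos (0.09 to 0.11), for Csf2rb2 Tjap1, Clip2 and Arih2 (0.08 to 0.09), and for Csf3r 2500002B13Rik, Gm37033 and Shisa3 (0.37 to 0.43). The points of each comparison share libraries and depth.

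Recovered reads per library ranged from 3481288 to 12020918, lowest in replicate 1 of Ctrl, so that 3 reads corresponded to 1.73 to 5.71 normalized counts. The 8 Mϕ markers summed to 152674 to 224038 normalized counts over all samples, led by Lyz2, Ctsd and Itgam, and the 8 lymphocyte markers to 8.88 to 29.4. The 6 mast cell and basophil markers summed to 24.8 to 86.2 in unstimulated and 556 to 657 in stimulated samples, in the latter mostly Hdc.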

How the data were processed

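Total RNA of CD45-selected BMDMs was depleted of rRNA and sequenced in 8 samples. The authors trimmed adapters with cutadapt, removed rRNA with Bowtie2, mapped to mm39 with STAR, counted with HTSeq at default settings and normalized in DESeq2, with tool versions not given in the sources used here. The deposited values are normalized counts, a signal per gene that is the read count divided by a size factor. Within a tolerance of 0.001, 100% of values in each sample were whole multiples of 1 step, which gave the reads (3481288 to 12020918 per sample). Intervals and floors on reads cover counting error only.

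limma 3.58.1 (R 4.3.3, trended eBayes) was fitted to log2(normalized count + 1) of all 8 samples by group, over the 16309 of 55359 genes with a mean of at least 10, with Benjamini-Hochberg adjustment per contrast and a threshold of 0.05. Fold changes on this scale understate changes of low genes. edgeR 4.0.16 and DESeq2 1.42.0 on the recovered reads, other scalings, filters and pseudocounts, the replicate block and each sample left out were alternatives. Differences between same-numbered replicates correlated between all groups (r 0.404 to 0.595 over 16309 genes). The fits with the replicate block therefore took the numbers to pair the samples, which the labels do not state. The limma fit by group and the permutation tests did not use this pairing. Two-sided exact permutation tests were used for ratios, since 2 samples against 2 cannot go below p = 0.333 without strata.

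Names, lengths and sequences came from GENCODE vM39 and GRCm39, with 54749 identifiers named. Levels per kb used the Ensembl canonical transcript. Genes named were all members, all related ligands and receptors, the called list gene with the largest rise and fall per contrast, the 3 genes most like each member, and markers used in a check. A few others are named where the text says so. The members and lists were chosen with earlier results of these data known. A few items that these rules would name are not reported here.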

Additional observations from a re-analysis of the deposited data

Results flagged for a closer look

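Flt3l, the ligand of Flt3, had log2 values of opposite sign under LPS/IFNγ in naïve (0.37) and efferocytic Mϕ (-0.37), and neither passed (limma adjusted p = 0.439 and 0.462). It had 34.3 and 30.7 normalized counts in Ctrl and 40.1 and 44.7 in LPS, where both stimulated samples were higher. It had 30.7 and 32.5 in Eff and 23.0 and 25.4 in LPSEff, where both were lower. The difference between both responses was -0.75 on the log2 scale and did not pass as an interaction in limma (adjusted p = 0.9999).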

How the results depend on the processing

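The number of members that passed was 4 in LPS against Ctrl, and 3 to 7 over 21 alternatives, and 4 in LPSEff against Eff, and 2 to 7. It reached 7 in both with DESeq2 and the replicate block. Over all genes 5615 and 5294 passed in that fit, against 3910 and 3213 in the limma fit by group. With 1 sample left out it ranged from 3 to 4 and from 2 to 4, with the lowest without replicate 1 of Eff or of LPSEff. In LPSEff against LPS it was 1 (Csf2) with DESeq2, with DESeq2 and the block, and with edgeR and the block. The limma fit with the replicate block moved the passing list entries from 43 to 71 in LPSEff against Eff, from 0 to 8 in Eff against Ctrl and from 0 to 11 in LPSEff against LPS, and added Csf2rb2 in both LPS/IFNγ contrasts, Csf3r in LPS against Ctrl and Csf2ra in LPSEff against Eff. It changed no other call of a member.

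Values that changed sign were all of genes that did not pass in that contrast, and the cause was not tested. In LPS against Ctrl, quantile normalization gave -0.45 for Csf2rb and -0.10 for Csf2rb2, and equal totals gave -0.027 for Csf2rb. In LPSEff against Eff, quantile normalization gave -0.059 for Csf2ra, -0.68 for Csf2rb and -0.10 for Csf2rb2, and equal totals gave -0.035 for Csf2rb. For Csf2ra in LPSEff against LPS, equal totals gave -0.022, edgeR with RLE scaling -0.0057, DESeq2 -0.0056 and DESeq2 with the replicate block -0.0041.

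The interaction of Csf2 was 0.31 in edgeR, 0.29 with RLE scaling, 0.61 in edgeR with the block and 0.13 in DESeq2 with the block, and that of Csf3 was -0.56 in edgeR, -0.58 with RLE scaling and -0.16 in DESeq2. Equal totals gave interactions of -0.020 for Csf1r, -0.0087 for Csf2rb and -0.023 for Csf2rb2, quantile normalization gave -0.23 for Csf2rb, and DESeq2 with the block gave -0.0045 for Csf2rb2.

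With 1 sample left out, Csf1r ranged from -0.38 to 0.028 in LPSEff against Eff. In Eff against Ctrl, Csf1 ranged from -0.18 to 0.26, Csf3 from -0.34 to 1.66 and Csf2rb2 from -0.099 to 0.31. In LPSEff against LPS, Csf3 ranged from -0.34 to 2.41, Csf1r from -0.40 to 0.0071, Csf2ra from -0.069 to 0.099 and Csf2rb2 from -0.020 to 0.28. The interaction ranged from -1.0004 to 1.75 for Csf3, from -0.17 to 0.23 for Csf1r, from -0.11 to 0.19 for Csf2rb and from -0.18 to 0.23 for Csf2rb2. A group left with 1 sample is assumed to vary like the others. At this depth Csf2 and Csf3 without stimulation rest on 0 to 9 reads per sample, which limits any statement on efferocytosis alone.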
